A study of Mus musculus with 15 samples.

Results

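The genes of hemoglobin and of the red cell lineage were examined in the liver of 15 female C57BL/6 mice from a study of Protectin DX (PDX), a lipid mediator given against frailty of old age. The 8 genes were chosen by name, without use of their values: the adult globin chains Hba-a1, Hba-a2, Hbb-bs and Hbb-bt, the heme enzyme Alas2, the red cell membrane genes Slc4a1 and Epb42, and the erythroid transcription factor Klf1. They are 8 of the 55450 gene IDs counted, and 7 of them passed the low-count filter that left 15808 genes, with Epb42 below it. The Adult group held 5 mice aged 6 months (A1 to A5) and the Old group 5 mice aged 22 months (O1 to O5), and both received corn oil by gavage each day. These labelled ages are those at the start of the study, so all mice were some months older when the livers were taken. The PDX group held 5 mice aged 22 months (P1 to P5) that were gavaged with PDX in corn oil at 30 ng per g of body weight, for 9 weeks by the sample labels. Each library was poly(A) RNA from the crushed liver of 1 mouse, the mice were euthanized by cardiac puncture, and perfusion of the liver is not given in the sources used here.

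Hemoglobin joins alpha and beta globin chains around heme and fills the red cell. Young red cells leave the marrow as reticulocytes, which have lost the nucleus but still carry globin mRNA, so blood held in a tissue brings globin transcripts with it. The nucleated precursors, the erythroblasts, also transcribe the membrane and regulatory genes of the lineage, among them the blood group and skeleton proteins and the factors Gata1 and Klf1. The liver forms red cells before birth, whereas in the adult mouse this takes place in the marrow and the spleen.

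The adult globins are pairs of close copies, which decides how they can be counted. By GENCODE M21, an annotation of GRCm38 (the mm10 assembly), Hba-a1 (ENSMUSG00000069919) lies at chr11:32283511-32284465 and Hba-a2 (ENSMUSG00000069917) at chr11:32296489-32297298 on the plus strand. Hbb-bs (ENSMUSG00000052305) lies at chr7:103826534-103828096 and Hbb-bt (ENSMUSG00000073940) at chr7:103812524-103813996 on the minus strand. Over 429 coding bases Hba-a2 differs from Hba-a1 by C381T alone, and over 444 coding bases Hbb-bt differs from Hbb-bs by C417T alone, with positions counted from 1 at the first base of the start codon. Neither substitution changes a codon's amino acid. The coding stretches around these positions are printed, taken from the GENCODE transcripts, with the differing base in capitals.

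Hba-a1: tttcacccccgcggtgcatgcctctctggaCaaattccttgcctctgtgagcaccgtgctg
Hba-a2: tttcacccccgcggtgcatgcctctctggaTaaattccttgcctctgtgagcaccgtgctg
Hbb-bs: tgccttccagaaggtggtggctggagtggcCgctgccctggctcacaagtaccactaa
Hbb-bt: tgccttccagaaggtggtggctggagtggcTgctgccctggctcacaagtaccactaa

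Because the counts were made from uniquely aligned pairs, only the rest of each transcript tells a pair apart. Of all windows of 50 bases, the read length, 32.46% were found in no other gene's transcript for Hba-a1, 13.07% for Hba-a2, 34.2% for Hbb-bs and 41.74% for Hbb-bt. The share was 86.17% for Alas2, which overlaps Apex2 on the opposite strand, and 99.93% to 100% for Slc4a1, Klf1 and Epb42. The globin levels below therefore rest on part of each transcript, and the split between the copies of a pair is uncertain.

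The promoters are shown because GATA and CACCC motifs are the known binding letters of Gata1 and Klf1, the factors that drive this gene group. RefSeq (GRCm38.p6) gave a promoter for 7 of the 8 genes, all but Slc4a1. In the 250 bases before the start, TGATAA or AGATAA on either strand occurred in 16.596% of 32851 RefSeq promoters and in 6 of the 7 (all but Hbb-bt). CACCC on either strand occurred in 52.014% of all promoters and in 6 of the 7 (all but Epb42). Capitals mark these motifs in a globin of each kind, the heme enzyme and the transcription factor, at chr11:32283422-32283671 (plus strand), chr7:103827929-103828178 (minus), chrX:150547167-150547416 (plus) and chr8:84901732-84901981 (plus). In the Alas2 promoter the CACCC matches read GGGTG on the printed strand and follow each other directly.

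Hba-a1: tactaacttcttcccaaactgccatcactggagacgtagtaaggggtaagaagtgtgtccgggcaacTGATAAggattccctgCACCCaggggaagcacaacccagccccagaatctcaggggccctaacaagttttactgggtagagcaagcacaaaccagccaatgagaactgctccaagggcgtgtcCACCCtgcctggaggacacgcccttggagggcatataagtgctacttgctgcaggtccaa
Hbb-bs: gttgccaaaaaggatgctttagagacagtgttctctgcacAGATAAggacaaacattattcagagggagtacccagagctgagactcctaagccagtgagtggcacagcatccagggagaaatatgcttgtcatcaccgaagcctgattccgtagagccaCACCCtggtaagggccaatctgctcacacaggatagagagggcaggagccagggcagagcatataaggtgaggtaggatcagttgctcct
Alas2: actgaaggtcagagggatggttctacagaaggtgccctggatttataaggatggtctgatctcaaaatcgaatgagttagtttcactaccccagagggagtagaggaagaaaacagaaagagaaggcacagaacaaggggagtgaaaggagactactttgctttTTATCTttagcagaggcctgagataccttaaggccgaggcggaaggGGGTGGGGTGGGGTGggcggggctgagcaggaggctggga
Klf1: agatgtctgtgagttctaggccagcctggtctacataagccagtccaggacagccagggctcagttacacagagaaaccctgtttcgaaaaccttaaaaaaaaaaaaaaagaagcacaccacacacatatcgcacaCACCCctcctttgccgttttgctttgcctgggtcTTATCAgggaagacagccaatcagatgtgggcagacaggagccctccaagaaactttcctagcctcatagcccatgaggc

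The libraries held 22424383 to 36070835 counts, and values are given as CPM, counts brought to a common library total after scaling by the trimmed mean of M-values (TMM), whose factors ran from 0.885 (O1) to 1.33 (O2). The 7 hepatocyte genes checked, Alb among them, summed to 135540 to 148140 CPM in the Adult mice, 80204 to 224880 CPM in the Old and 131970 to 184320 CPM in the PDX mice, with the lowest sums in O5 and O2 (84765 CPM). Upward, the Old mouse O2 stood apart, with 11.9% of 18634 measured genes at least 4-fold above the Adult median. The other 9 Old and PDX mice had 1.52% to 5.91%. Downward, O5 had 7.05% of the genes at least 4-fold below the Adult median, against 1.45% in O2. The paper describes both O2 and O5 as far from the remaining mice in gene expression. In O2 the median of the hepatocyte genes was -0.78 on the log2 scale against the Adult median, with 1 of the 7 at least 4-fold lower (all genes 1.45%), and their part in the values of O2 was not tested. The fold changes of the tested genes between Old and either other group are given with and without O2. Those of the chosen genes that turned without both O2 and O5 are given further below.

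The 4 adult globins together took 0.0149% to 0.0235% of the counts of the Adult mice, 0.00909% to 0.127% of the Old and 0.0107% to 0.0424% of the PDX mice. The highest Adult share had a 95% exact binomial interval of 0.0229% to 0.0240%, and intervals here cover counting error only. Globin transcripts were thus the most even among the Adult livers and the most uneven among the Old ones.

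Hbb-bs, a beta chain of adult hemoglobin, stood at 113, 125, 137, 131 and 179 CPM in A1 to A5, at 132, 678, 336, 79.5 and 67.0 CPM in O1 to O5, and at 85.8, 152, 93.0, 331 and 224 CPM in P1 to P5. Hba-a1, an alpha chain, stood at 24.3, 29.9, 32.8, 32.6 and 40.0 CPM in A1 to A5, at 32.0, 183, 65.6, 19.7 and 15.2 CPM in O1 to O5, and at 16.3, 36.9, 23.2, 74.8 and 50.9 CPM in P1 to P5. The same mice were high for both chains: O2 far above all others, then O3 and P4, then P5. O4, O5, P1 and P3 lay below every Adult mouse for both chains, and the 3 groups overlapped.

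Hba-a2 and Hbb-bt, the copies with fewer counts, ran alongside. Hba-a2 stood at 2.70 to 3.31 CPM in the Adult mice, at 2.55, 15.9, 6.52, 0.965 and 0.937 CPM in O1 to O5, and at 1.38, 2.85, 3.03, 6.46 and 6.08 CPM in P1 to P5. Hbb-bt stood at 10.1 to 15.4 CPM in the Adult mice, at 10.9, 77.0, 27.0, 5.86 and 4.04 CPM in O1 to O5, and at 6.54, 17.9, 7.66, 22.8 and 19.0 CPM in P1 to P5. The ratio of alpha to beta globin counts ran only from 0.192 to 0.264 over the 15 mice, with group medians of 0.238 (Adult), 0.241 (Old) and 0.233 (PDX). Hba-a2 gave 4.66% to 11.5% of the alpha counts and Hbb-bt 5.68% to 10.5% of the beta counts, within the uncertainty of the copies stated above.

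**Figure D1:**
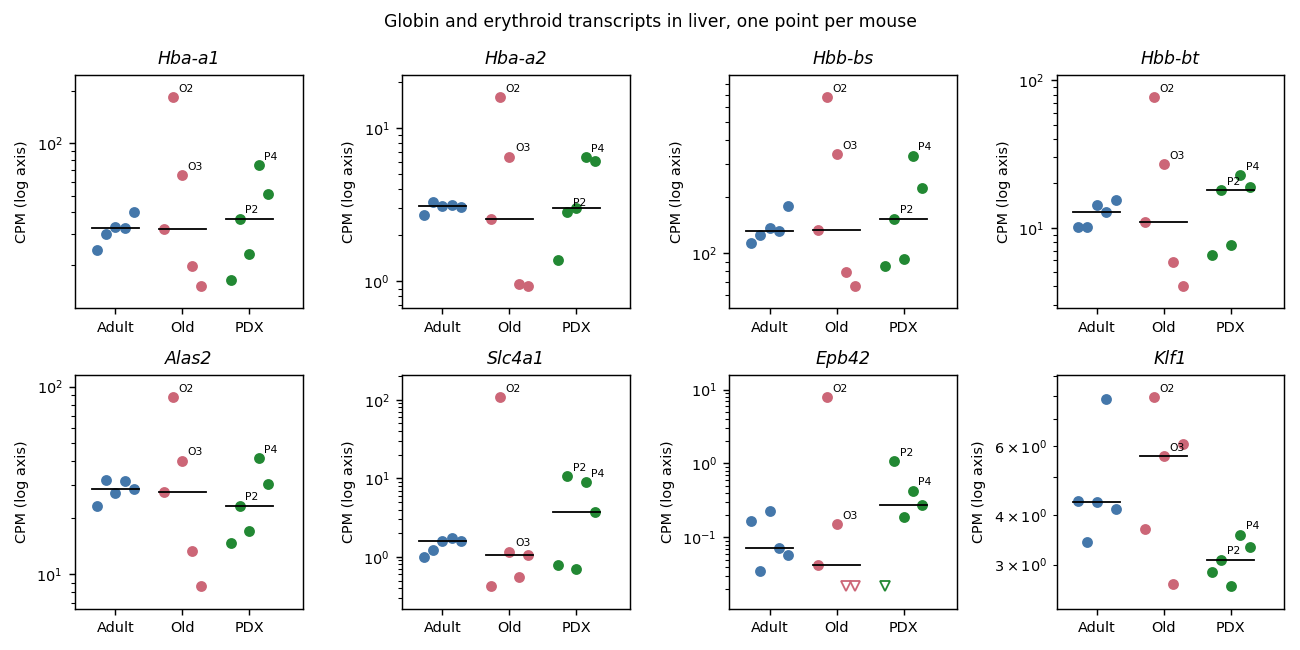
CPM on a log axis for each of the 8 genes, with 1 point per mouse in the Adult, Old and PDX groups, a bar at the group median and open triangles for mice with 0 counts. O2 is the highest Old mouse in every panel, while P2 and P4 lead the PDX group for Slc4a1 and Epb42.

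Alas2 encodes the erythroid form of the enzyme that starts heme synthesis (ENSMUSG00000025270, chrX:150547375-150570638, plus strand). It stood at 23.2, 31.7, 27.2, 31.4 and 28.3 CPM in A1 to A5, at 27.4, 87.6, 40.3, 13.2 and 8.61 CPM in O1 to O5, and at 14.7, 23.2, 16.9, 41.4 and 30.1 CPM in P1 to P5. Alas2 thus followed the globins mouse by mouse, over a narrower range. Per 1000 counts of Hbb-bs there were 159 to 253 counts of Alas2 in the Adult mice, and the mice with the most Hbb-bs had fewer, at 129 in O2 (95% interval 124 to 134), 120 in O3 (112 to 128) and 125 in P4 (118 to 133). O5, with the least Hbb-bs, had 129 (112 to 147).

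Slc4a1 encodes band 3, the anion exchanger that makes up much of the red cell membrane (ENSMUSG00000006574, chr11:102348824-102366203, minus strand). It had 35, 35, 35, 47 and 55 counts in A1 to A5 (0.983 to 1.72 CPM), and its level was 0.424, 107, 1.17, 0.557 and 1.05 CPM in O1 to O5, and 0.788, 10.7, 0.693, 8.85 and 3.75 CPM in P1 to P5. In O2 it was 75.3 times the Adult mean, whereas Hbb-bs was at 4.94 and Hba-a1 at 5.74 times the Adult mean. The order of the other mice differed from that of the globins. In O3, with 2.45 times the Adult mean of Hbb-bs, Slc4a1 was at 0.822 times its Adult mean. In P2, with 1.11 times the Adult mean of Hbb-bs, Slc4a1 was at 7.51 times, while P4 was raised in both, at 2.41 and 6.23 times.

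Counted against Hbb-bs in the same library, which needs no scaling between libraries, the same mice stood out. Per 1000 counts of Hbb-bs there were 8.67 to 13.1 counts of Slc4a1 in the Adult mice and 3.21 to 15.6 in the Old mice other than O2. O2 had 158 (95% interval 153 to 164), P2 70.0 (61.6 to 79.3), P4 26.8 (23.5 to 30.4) and P5 16.8 (13.7 to 20.3), while P1 and P3 had 9.19 and 7.46. O3 had 3.48 (2.36 to 4.94), below every Adult mouse. The livers high in globins therefore divided into O2, P4 and P5, with more Slc4a1 per Hbb-bs than any Adult mouse, and O3, with less.

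Epb42 encodes protein 4.2, which ties band 3 to the membrane skeleton (ENSMUSG00000023216, chr2:121017891-121037072, minus strand). It had 6, 1, 5, 2 and 2 counts in A1 to A5, 1, 267, 4, 0 and 0 in O1 to O5, and 0, 27, 6, 12 and 8 in P1 to P5. A count of 0 allows up to 3 counts, or 0.111 CPM in O4, 0.108 in O5 and 0.118 in P1. O2 and P2 led here as for Slc4a1, with 11.5 (10.2 to 13.0) and 7.10 (4.67 to 10.4) counts per 1000 of Hbb-bs against at most 1.67 in the Adult mice.

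Klf1 encodes a zinc finger factor that binds CACCC motifs and activates the beta globin gene (ENSMUSG00000054191, chr8:84901928-84905291, plus strand). Its level was 4.35, 3.41, 4.33, 7.90 and 4.16 CPM in A1 to A5, 3.69, 7.95, 5.65, 2.67 and 6.05 CPM in O1 to O5, and 2.88, 3.09, 2.65, 3.57 and 3.33 CPM in P1 to P5. Klf1 did not share the pattern of the membrane genes: O2 was at 1.65 times the Adult mean, close to A4, and P2 and P4 were at 0.639 and 0.739 times. Gata1, its partner at erythroid genes, had 0 or 1 count in each Adult mouse, where Klf1 had 95 to 216, and had 171 counts in O2, 25 in P2 and 35 in P4 against 0 to 5 in the other 7 Old and PDX mice. A floor of 3 counts for Gata1 corresponds to 0.0842 to 0.137 CPM in the Adult libraries.

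**Figure D2:**
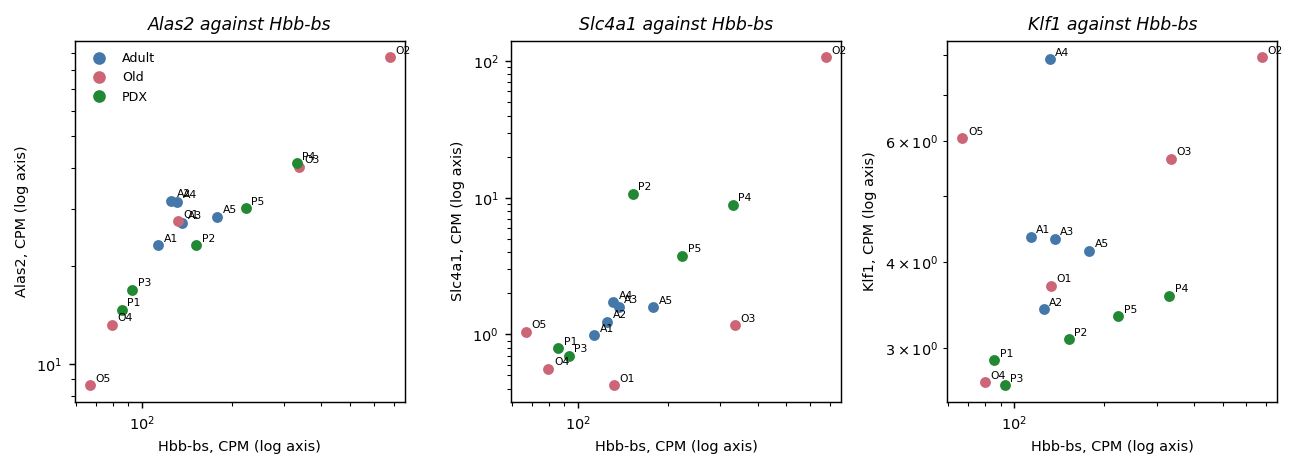
Alas2, Slc4a1 and Klf1 in CPM against Hbb-bs in CPM, log axes, 1 labelled point per mouse. Alas2 rises along with Hbb-bs (r = 0.92), in the Slc4a1 panel O2, P2 and P4 sit high and O3 low, and Klf1 shows no past-threshold relation (r = 0.43).

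Per kilobase of exon, the order of the mean Adult levels was Hbb-bs (179 ± 32.3 CPM per kb, SD, n = 5), Hba-a1 (39.3 ± 6.97), Hbb-bt (17.8 ± 3.36), Alas2 (11.8 ± 1.46), Hba-a2 (4.59 ± 0.338), Klf1 (3.16 ± 1.15), Slc4a1 (0.29 ± 0.062) and Epb42 (0.0207 ± 0.0152). Among the Adult mice only the neighbours Hba-a2 and Klf1 overlapped. Klf1 was thus above Slc4a1 and Epb42 per length in every Adult liver, while in O2 Slc4a1 reached 21.9 CPM per kb against 5.20 for Klf1. The lengths count all exon bases and were not corrected for sequence shared between genes. The share of read-length windows found in no other gene's transcript was 13.07% for Hba-a2, 86.17% for Alas2 and 100% for Klf1. The places of the globins in the order are therefore uncertain, that of Hba-a2 most of all. Of the 7 neighbouring pairs, 6 overlapped among the Old mice (all but Klf1 with Epb42) and 6 among the PDX mice (all but Hbb-bs with Hba-a1).

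How the genes varied together over the 15 mice was measured on log2 CPM for the 21 pairs of the 7 genes past the filter, with two-sided permutation p-values from 100000 resamples adjusted over the pairs. The 6 pairs of globins had Pearson r of 0.94 to 0.99 and Spearman rho of 0.85 to 0.99. Without the 2 mice farthest from the median r was 0.88 to 0.98. The adjusted permutation p for r was 2.1e-05, with each unadjusted p at 1e-05, the smallest the resamples can give. Alas2 followed the globins at r of 0.92 to 0.94 and rho of 0.85 to 0.93 (adjusted permutation p = 2.1e-05), and 0.87 to 0.88 without 2 mice. For the globins with Slc4a1 r was 0.73 to 0.82 and rho 0.69 to 0.76 (adjusted permutation p of 0.000878 to 0.00258), falling to 0.46 to 0.73 without 2 mice. With O2 left out these r were 0.52 to 0.63 and 3 of the 4 pairs remained past 0.05. The 6 pairs with Klf1 had r of 0.39 to 0.44 and rho of 0.34 to 0.43, none past 0.05 (adjusted permutation p of 0.116 to 0.152). In all 15 of the 21 pairs passed 0.05, and after subtraction of the group means 16 did. All genes of 1 library share its depth and scaling, and with plain library totals in place of TMM 4 of the 6 Klf1 pairs passed.

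Among the 5 genes most like Hbb-bs over the 15 mice, outside the 8, were Hells (r = 0.89), Dysf (0.86), Lmnb1 (0.85) and Dnmt1 (0.85). Hells, Lmnb1 and Dnmt1 encode chromatin and nuclear lamina proteins. The genes most like Klf1 were others: Nceh1 (r = 0.90, and 0.90 without O2), Kmt2c (0.89), Vps13b (0.87), Depdc5 (0.87) and Atrx (0.87). These r values rank all tested genes and carry no test.

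The further genes of the lineage were taken from fixed lists by role: 12 of heme synthesis, 17 of the red cell membrane and skeleton, 12 transcription factors, 21 other erythroblast and reticulocyte genes with a matched ID (Ahsp and Rhex are not analysed here) and 6 embryonic and theta globins. Together these 68 genes include Alas2, Slc4a1, Epb42 and Klf1, and 63 reached 10 counts in at least 1 mouse. In O2, 32 of the 63 lay at least 4-fold above the Adult median and 0 as far below, beside 11.9% of all measured genes. A gene that reached 10 counts through O2 alone could only stand high there, so these counts describe O2 and test nothing. In P2, 15 of the 63 lay 4-fold above (all genes 3.17%), and in P4 10 (2.69%). In the other mice it was 0 in O1 (1.93%), 1 in O3 (2.15%), 1 in O4 (2.18%), 1 in O5 (5.91%), 0 in P1 (2.6%), 2 in P3 (3.7%) and 1 in P5 (1.52%). O5 also had 8 of the 63 at least 4-fold below (all genes 7.05%).

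**Figure D3:**
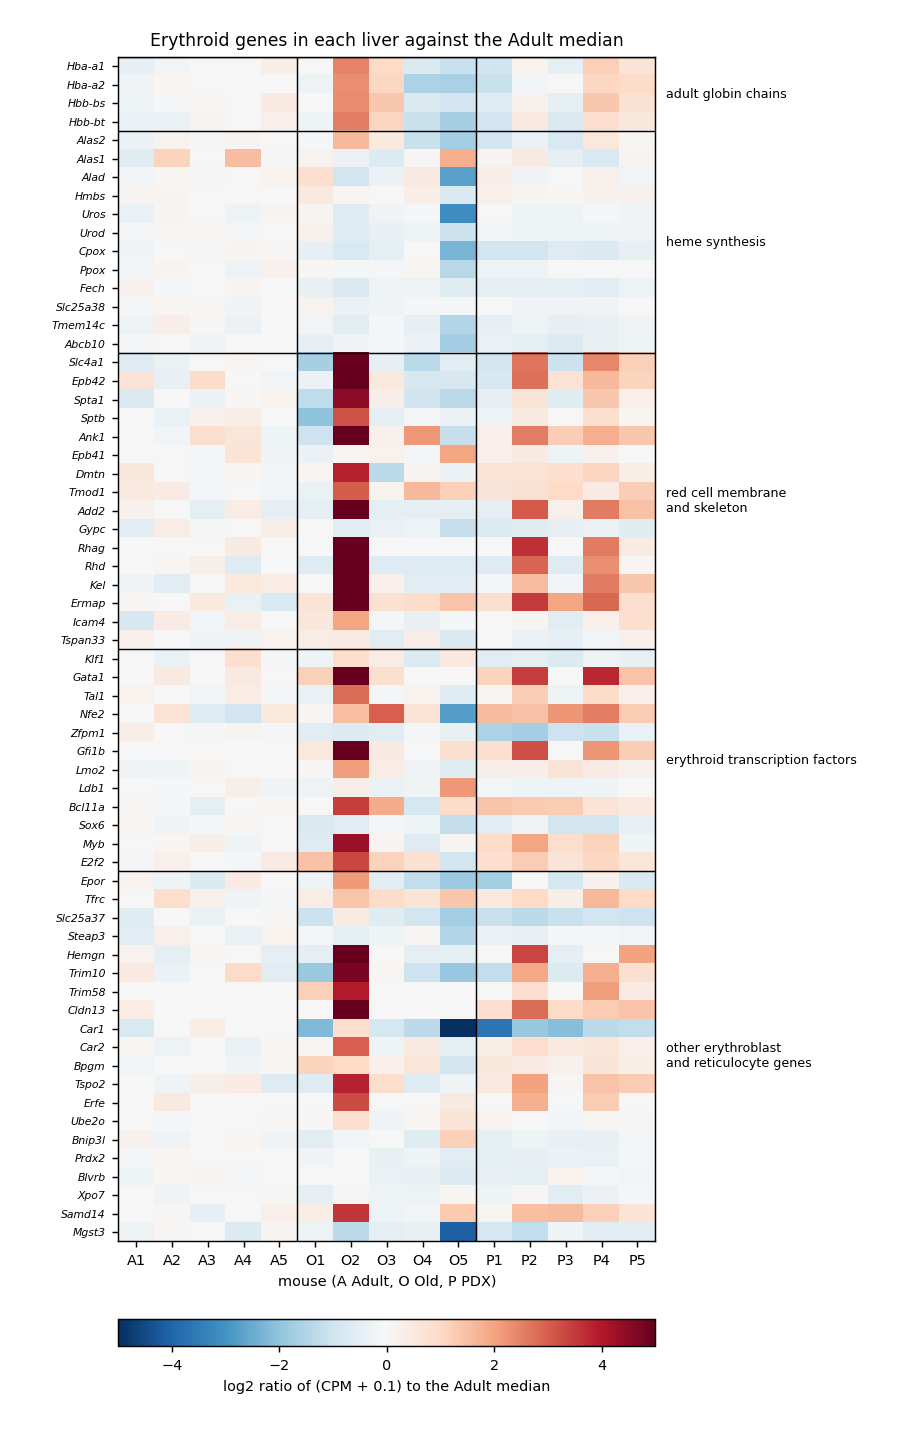
Log2 ratio of CPM + 0.1 in each mouse to the Adult median + 0.1 for the adult globins and most genes of the erythroid lists, red for higher and blue for lower, with colours ending at 5. The column of O2 is red over most membrane genes and over Gata1, Gfi1b, Myb, Hemgn, Trim10 and Cldn13, fainter columns follow in P2 and P4, and the heme synthesis genes other than Alas2 stay pale or blue in O2.

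Of the membrane genes, 14 of the 17 in O2 were 4-fold above the Adult median, 8 in P2 and 6 in P4, against 0 or 1 in each other Old or PDX mouse. Rhag, the Rh-associated glycoprotein, had 278 counts in O2, 29 in P2 and 14 in P4, and 0 or 1 in each of the other 12 mice. Ank1, the ankyrin that anchors the spectrin skeleton, had 847 counts in O2, 53 in P2 and 35 in P4, against 7 to 13 in the Adult mice, and O4 had 43. Epb41, Gypc and Tspan33 were within 4-fold of the Adult median in O2.

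Of the transcription factors, 7 of 12 lay 4-fold above the Adult median in O2, 3 in P2 and 3 in P4. Gfi1b, a repressor of the erythroid and megakaryocyte lineages, had 122 counts in O2, 21 in P2 and 10 in P4 against 0 to 4 in the others. Myb, a factor of early blood progenitors, had 102, 13 and 7 counts in these mice against 0 to 6. Of the other erythroblast genes, 10 of 21 passed 4-fold in O2. Hemgn, a nuclear protein of erythroblasts, had 477 counts in O2, 32 in P2 and 13 in P5, and 0 to 2 in the others, P4 with 1 among them. In the heme synthesis list 0 of 12 genes were 4-fold above in any mouse, and its median in O2 was -0.46 on the log2 scale. Alas2 stood out from the list in O2, at 3.09 times the Adult mean. The list summed to 1061 to 1742 CPM in the Adult mice, mostly from genes other than Alas2 (23.2 to 31.7 CPM). It therefore cannot show whether an erythroid part of these other genes changed. The embryonic and theta globins were at or near 0, with a summed level of 0 to 0.143 CPM in the Adult mice, at most 0.0802 CPM in the PDX mice and 0.702 CPM in O2, where Hbq1b had 20 counts.

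The livers with erythroid membrane transcripts also carried transcripts of other blood lineages. Neutrophil transcripts were raised in the other Old and PDX livers too. The 12 platelet and megakaryocyte genes summed to 18.6 to 23.1 CPM in the Adult, 17.4 to 176 CPM in the Old (at most 38.6 without O2) and 23.4 to 54.5 CPM in the PDX mice. Of the 11 of them measured, 10 were 4-fold above the Adult median in O2, 5 in P2 and 7 in P4, against 0 to 2 in the other mice. The 8 neutrophil precursor genes, such as Elane and Mpo of the granules, summed to 0.449 to 1.91 CPM in the Adult, 12.7 to 168 CPM in the Old (at most 66.5 without O2) and 24.0 to 166 CPM in the PDX mice. All 8 were 4-fold above in O2, P2 and P4, and 4 to 6 of the 8 in each other Old or PDX mouse. The 8 genes of circulating neutrophils summed to 21.9 to 39.3 CPM in the Adult, 118 to 973 CPM in the Old and 231 to 1261 CPM in the PDX mice. P2 had the highest sum, but O5 (973 CPM) and O4 (577) were above O2 (510), and P1 (513) was above P4 (372). The part of these lineages in the erythroid values was not tested, and in bulk liver more cells of a type and more RNA per cell cannot be told apart.

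**Figure D4:**
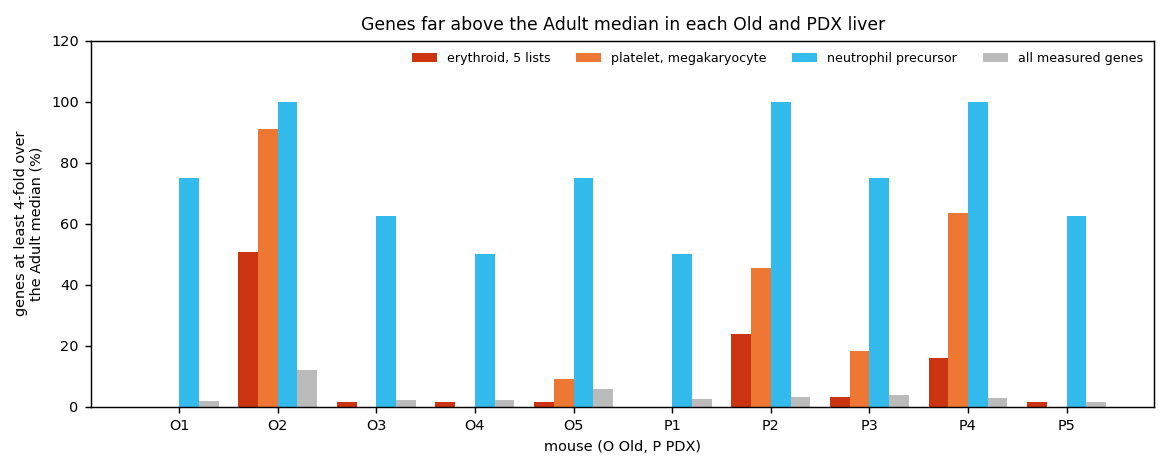
Percentage of measured genes at least 4-fold above the Adult median in each Old and PDX mouse, for 63 erythroid genes, 11 platelet and megakaryocyte genes, 8 neutrophil precursor genes and all 18634 measured genes. The erythroid and platelet bars stand above all genes in O2, P2 and P4, whereas the neutrophil precursor bars are high in all 10 mice.

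The effect of age was asked by comparing Old with Adult mice, both on vehicle, with edgeR's quasi-likelihood test and Benjamini-Hochberg adjustment over all 15808 genes. None of the 7 tested genes passed the adjusted p of 0.05 (0 of 7, 1 at an unadjusted p under 0.05, and 1 by DESeq2). The shares of all genes were 6.78%, 27.7% and 9.09%. Log2 fold changes of the globins were 0.98 ± 0.58 for Hba-a1, 0.81 ± 0.65 for Hba-a2, 0.91 ± 0.56 for Hbb-bs and 1.00 ± 0.64 for Hbb-bt (± SE, n = 5 and 5, adjusted p of 0.282 to 0.436). Without O2 the 4 values were 0.06, -0.15, 0.17 and -0.06. Slc4a1 had the largest value, 3.96 ± 1.43 (adjusted p = 0.0914), and DESeq2 called it at 3.95 (adjusted p = 0.0193). Without O2 it was -0.81 ± 0.70 (adjusted p = 0.52). Alas2 was at 0.32 ± 0.48 (adjusted p = 0.697), and at -0.33 without O2. Klf1 was at 0.11 ± 0.28 (adjusted p = 0.834), and at -0.09 without O2. Epb42, tested only without the low-count filter, was at 3.80 ± 1.43 (adjusted p = 0.147). The higher Old means of Slc4a1 and Epb42 thus came from 1 of 5 mice, and those of the globins from O2 and, to a lesser degree, O3.

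The effect of treatment was asked by comparing PDX with Old mice at the adjusted p of 0.25 that the study used. None of the 7 genes passed (0 of 7, 1 at an unadjusted p under 0.05, 0 by DESeq2), as none of all genes did (0% of 15808, with 833 at an unadjusted p under 0.05 and 1 gene, or 0.00344%, by DESeq2). The globins were at -0.64 ± 0.58 (Hba-a1), -0.44 ± 0.64 (Hba-a2), -0.55 ± 0.55 (Hbb-bs) and -0.76 ± 0.63 (Hbb-bt), with adjusted p of 0.806 to 0.868, and Alas2 at -0.49 ± 0.48. Slc4a1 was at -2.16 ± 1.31 (adjusted p = 0.793). Without O2 these values turned, to 0.28, 0.53, 0.20 and 0.30 for the globins, 0.17 for Alas2 and 2.61 ± 0.72 for Slc4a1 (adjusted p = 0.297). Klf1 was the gene with the unadjusted p under 0.05, at -0.75 ± 0.28 (edgeR, unadjusted p = 0.0184 and adjusted p = 0.793, fitted across all genes), and -0.54 ± 0.27 without O2. All 5 PDX mice had Klf1 below 4 of the 5 Old mice, and the range of the groups overlapped through O4.

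**Figure D5:**
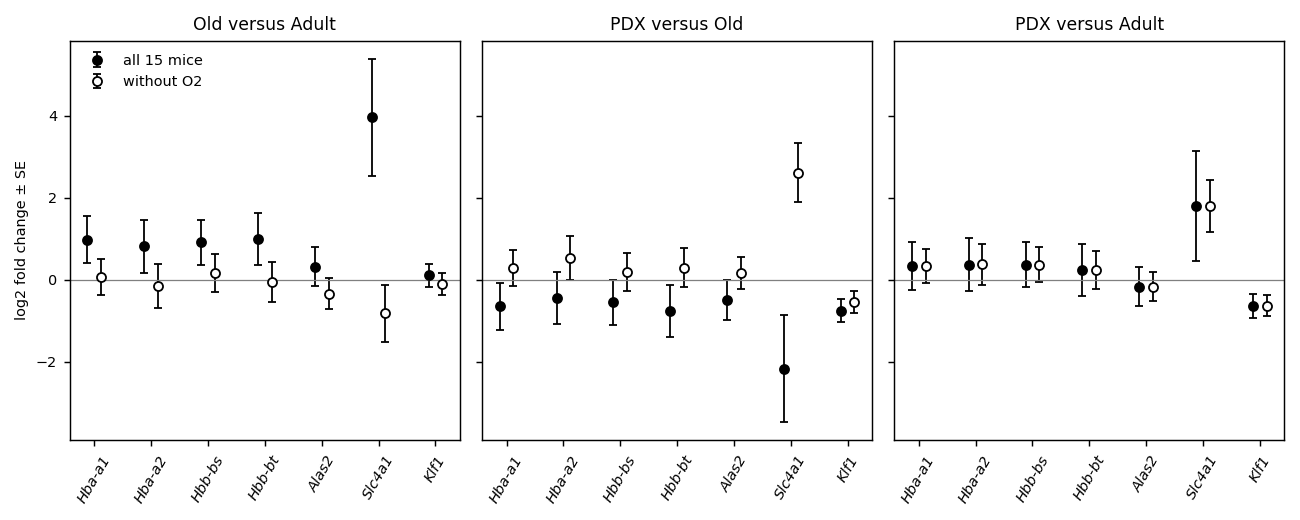
Log2 fold change with its SE for the 7 tested genes in the 3 comparisons, filled points for all 15 mice and open points without O2. Leaving out O2 moves Slc4a1 from 3.96 to -0.81 between Old and Adult and from -2.16 to 2.61 between PDX and Old, whereas the values between PDX and Adult hardly move.

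PDX mice were also set against the Adult mice, a comparison that shares its mice with the other two. None of the 7 genes passed 0.05 (0 of 7, 1 at an unadjusted p under 0.05, 0 by DESeq2). The shares of all genes were 2.66%, 20.6% and 4.82%. The globins were at 0.24 to 0.37 (SE 0.55 to 0.65), Alas2 at -0.17 ± 0.48 and Slc4a1 at 1.80 ± 1.34 (adjusted p = 0.479). In the fit without O2 and O5, 1 of the 7 genes crossed the threshold, Slc4a1 at 1.81 (adjusted p = 0.0489), where 4006 of 16275 genes passed. In a fit of the 2 groups alone Klf1 crossed it, at -0.63 (adjusted p = 0.0457), where 4531 of 15297 genes passed. In the fit of all mice Klf1 was at -0.64 ± 0.28 (adjusted p = 0.216).

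Over the lineage lists few genes passed. Between Old and Adult, where 6.78% of all genes were called, 1 of the 11 tested membrane genes was. It was Ermap, a membrane protein of erythroid cells, at 5.68 ± 1.49 (adjusted p = 0.0374). Its level was 0 to 0.137 CPM in the Adult mice, 16.0 CPM in O2 and 0.170 to 0.360 CPM in the other Old mice, and without O2 the value was 1.87 ± 0.82 (adjusted p = 0.198). With so little in the Adult mice, Ermap passed the low-count filter only through Old and PDX mice. Of 12 heme genes 1 was called and it was lower, Fech, which inserts iron into heme and serves the hepatocyte too, at -0.46 ± 0.12 (adjusted p = 0.0393), with 153 to 187 CPM in the Adult and 99.3 to 144 CPM in the Old mice. Without O2 Fech was at -0.38 (adjusted p = 0.0821). None of the 9 transcription factors or of the 16 other erythroblast genes was called (0 of 9 with 4 at an unadjusted p under 0.05, 0 of 16 with 5, where 27.7% of all genes had one). DESeq2 called 4 of 10 and 1 of 17, where it called 9.09% of all genes. Without O2, where 4.32% of all genes passed, 1 of the 16 was called, the mitochondrial iron importer Slc25a37, which was lower (-0.86, adjusted p = 0.0294, and -0.45 with all mice, adjusted p = 0.336). The medians of the lists were 1.72 for the membrane genes, 0.77 for the factors, 0.25 for the other erythroblast genes and -0.26 for heme synthesis, beside 0.07 over all genes, and without O2 they were -0.09, 0.01, -0.20 and -0.30. Next in the lists by p were Ank1 (3.90 ± 1.27, adjusted p = 0.0689), Bcl11a (2.24 ± 0.70, adjusted p = 0.0619), which silences embryonic globin genes, E2f2 (1.73 ± 0.55, adjusted p = 0.0643), Samd14 (1.95 ± 0.68, adjusted p = 0.0826), Tfrc, the transferrin receptor (0.78 ± 0.29, adjusted p = 0.0963), and Tmem14c (-0.46 ± 0.21, adjusted p = 0.169). Without O2 these 6 values were 0.56, 1.09, 0.77, 0.52, 0.66 and -0.42, with adjusted p of 0.200 to 0.693.

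Between PDX and Old no gene of any list passed (0 in each of the lists, edgeR, and 0 by DESeq2). At an unadjusted p under 0.05 there were 3 of the 9 transcription factors and 0 of the 12 heme, 11 membrane and 16 other erythroblast genes, where 5.27% of all genes had one. Without O2 there were 4 of 9, 0 of 12, 5 of 11 and 2 of 16, beside 11.2% of all genes, and no call in any list or over all genes (0%). The median of the membrane genes turned from -1.0 to 0.85. Between PDX and Adult, where 2.66% of all genes were called, 1 erythroid gene was. It was the Gata1 cofactor Zfpm1, which was lower, at -1.15 ± 0.22 (adjusted p = 0.0133). Zfpm1 stood at 82.2, 64.7, 62.1, 71.0 and 59.9 CPM in A1 to A5, at 45.0, 39.9, 44.3, 62.1 and 50.3 CPM in O1 to O5, and at 21.6, 19.7, 31.3, 29.9 and 51.0 CPM in P1 to P5. All PDX mice were below all Adult mice for this gene. O2, with the most Gata1, had no high level of Zfpm1, and the call held without any single mouse (adjusted p up to 0.0443). Without O2, where 11.1% of all genes passed, 5 more erythroid genes were called between PDX and Adult: Ermap (3.56, adjusted p = 0.00793), Car2 (0.61, adjusted p = 0.0381) and Samd14 (1.22, adjusted p = 0.0469) were higher, and Slc25a37 (-0.95, adjusted p = 0.00556) and Fech (-0.47, adjusted p = 0.0162) lower. DESeq2, with 4.82% of all genes called, added Gfi1b (5.49, adjusted p = 0.0358) as higher and Slc25a37 and Fech as lower to Zfpm1.

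Among the other blood lists, all 6 tested neutrophil precursor genes rose between Old and Adult, where 6.78% of all genes were called. Elane, Mpo, Prtn3, Camp, Ltf and Ngp had log2 fold changes of 5.00 to 6.72. Without O2 5 of the 6 stayed past the threshold (all genes 4.32%), with Camp at an adjusted p of 0.0541. The 8 genes of this list summed to at most 1.91 CPM in any Adult mouse. The 6 passed the low-count filter largely through Old and PDX mice, so their counts of calls against Adult mice are in part fixed by it. Of the 8 circulating neutrophil genes 4 rose (Lcn2, which hepatocytes also make, at 4.74, S100a8 at 3.30, S100a9 at 3.10 and Cxcr2 at 1.66), and without O2 S100a9 and Cxcr2 did not pass. Of the 7 tested platelet genes 2 rose, Pf4 (4.93 ± 1.18, adjusted p = 0.0289) and Vwf of endothelium and megakaryocytes (0.68 ± 0.19, adjusted p = 0.0431), and without O2 neither passed (Pf4 at 2.12, adjusted p = 0.0629). Pf4 was at 0.458 to 0.638 CPM in the Adult mice and at 71.2 CPM in O2. Between PDX and Adult, where 2.66% of all genes were called, 3 of the 6 precursor genes rose (Elane, Mpo and Prtn3, at 4.95 to 7.98). Of the 8 circulating neutrophil genes 1 rose (Lcn2, at 5.05), and of the 7 platelet genes 0. Of these 7, 3 had an unadjusted p under 0.05, as did 20.6% of all genes, and DESeq2 called 1 of 12 (all genes 4.82%). Without O2 the counts of genes that rose were 6 of 6, 5 of 8 and 5 of 7, beside 11.1% of all genes called in either direction. With only the 2 groups compared, 4 platelet genes passed the filter for Old and Adult and 5 for PDX and Adult. The counts of platelet calls against Adult mice are thus also in part fixed by the filter.

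Haptoglobin (Hp) and hemopexin (Hpx) are plasma carriers of free hemoglobin and heme that the liver makes. Both transcripts were higher with age, and what raised them was not tested. Hp rose by 1.59 ± 0.35 between Old and Adult (adjusted p = 0.0233) and by 1.83 ± 0.35 between PDX and Adult (adjusted p = 0.0133). Hpx rose by 1.70 ± 0.43 (adjusted p = 0.0319) and by 1.86 ± 0.43 (adjusted p = 0.0311). O2, the mouse with the most globin, was not high in either, at 0.708 and 0.895 times the median of the other Old mice, and both calls between Old and Adult held without it. Of the 10 genes of hemoglobin and heme clearance these 2 were called in both comparisons, beside 6.78% (Old) and 2.66% (PDX) of all genes. Hmox1, the heme oxygenase, was at 1.68 (adjusted p = 0.0611) and Spic, a factor of heme-recycling macrophages, at 2.18 (adjusted p = 0.0645), with O2 at 6.07 and 7.92 times the median of the other Old mice and values of 0.76 and 1.35 without it. Cd163, the receptor for haptoglobin with hemoglobin, went the other way, at -1.51 ± 0.45 (adjusted p = 0.0563) between Old and Adult and -1.60 ± 0.46 (adjusted p = 0.0734) between PDX and Adult. DESeq2 called 5 of the 10 between Old and Adult (all genes 9.09%), Hp, Hpx, Hmox1 and Spic higher and Cd163 lower (adjusted p = 0.0125). Leaving out any 1 Adult mouse ended 12 of the 16 calls of list genes between Old and Adult, those of Hp, Hpx, Ermap, Fech and Pf4 among them, and the calls over all genes then fell from 1072 to between 156 and 243.

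Of the 9 genes of systemic iron and erythropoietin signals none was called between Old and Adult (0 of 8 tested by edgeR, 3 at an unadjusted p under 0.05, and 3 by DESeq2). The shares of all genes were 6.78%, 27.7% and 9.09%, here and for the hepatocyte genes below. Hamp2, a copy of the hepcidin gene, was at -3.50 ± 1.18 (adjusted p = 0.0754), with 666 to 1158 CPM in the Adult mice and 0.685 to 307 CPM in the Old, and at -3.16 without O2. Ftl1, the ferritin light chain, was at -0.36 ± 0.13 (adjusted p = 0.0928). Trf, the plasma iron carrier transferrin, was at 0.60 ± 0.22 (adjusted p = 0.0929), and DESeq2 called it higher (adjusted p = 0.00305) and Hamp2 and Ftl1 lower. None of the 7 hepatocyte genes was called (0 of 7, 3 at an unadjusted p under 0.05, and 3 by DESeq2), with Ttr at -1.04 (adjusted p = 0.0782) and Fgb at 1.09 (adjusted p = 0.0932), which passed without O2 at 1.31 (adjusted p = 0.0458).

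The labels give each mouse a frailty index score and a number of positive frailty criteria. O2, P2 and P4, with the most Gata1, had scores of 0.11, 0.19 and 0.26 and 3, 2 and 3 criteria. O5, with the least Hbb-bs, had a score of 0.56 and 4 criteria, O4, the next lowest, 0.33 and 4 criteria, and P1, the third lowest, 0.06 and 0 criteria. O3 and P5, which like O2 and P4 were high in Hbb-bs, had scores of 0.19 and 0.2 and 3 and 4 criteria. A relation of these scores to the transcripts was not tested.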

How the data were processed

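Liver mRNA was sequenced as 50-base pairs from 15 mice, 1 library per mouse, the Adult, Old and PDX groups holding 5 separate mice apiece. The authors aligned the reads to mm10 with STAR 2.6.0c and made the deposited counts with featureCounts (Subread 1.6.2) against Ensembl annotation 100, keeping properly paired unique alignments on the gene's own strand and leaving out mitochondrial genes. The authors also deposited log2 values from the variance stabilizing transformation of DESeq2 1.23.10, which served only as an alternative input for the correlations. Symbols and coordinates came from GENCODE M21 (GRCm38), which matched 55104 of 55450 IDs. Counts were fitted with edgeR 4.0.16 (R 4.3.3): filterByExpr (minimum count 10, minimum total 15), TMM scaling, and 1 quasi-likelihood model of all 15 mice with a coefficient per group. Log2 CPM used a prior count of 2. Adjusted p-values are Benjamini-Hochberg values over all tested genes, at 0.05 or, between PDX and Old, 0.25 as in the study. Correlations used 100000 permutations (seed 1, Python 3.11.15, scipy 1.17.1). The steps were tested on simulated data.

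Named genes are the 8 chosen genes, the genes of each list past a threshold (the 6 smallest p-values where there were more), the 2 genes of each list with the smallest p between Old and Adult, and the 5 genes most alike Hbb-bs and Klf1. Other list genes named (Gata1, Rhag, Gfi1b, Myb, Hemgn, Hbq1b, Hmox1, Spic, Cd163, Trf, Slc25a37 and Car2) were picked after their values were seen. Not every gene that these rules give is reported here. The genes, lists and tests were chosen with earlier results of these data known. The alternatives were DESeq2 1.42.0, other scalings, no filter, fits of the 2 groups compared, fits without each mouse or without O2 and O5, and a replicate block. Same-numbered mice are different animals. The batches in which mice were euthanized are not given per mouse in the sources used here. The labels state 9 weeks of gavage and the series text 8, and the labels were followed.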

Additional observations from a re-analysis of the deposited data

Results flagged for a closer look

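In 24 groups of 5 mice (8 genes in 3 groups), a value was set apart where its gap to the next, divided by the group's range, was above 0.71, which chance gives in about 1 of 20 groups. This held for 3 values, 2 of them from O2. Slc4a1 was 107.1 CPM in O2 (gap over range 0.993), against 0.424 to 1.17 CPM in the other Old mice. Epb42 was 7.806 CPM in O2 (0.981), against 0 to 0.151 CPM. Klf1 was 7.897 CPM in A4 (0.791), against 3.41 to 4.35 CPM in the other Adult mice. The Epb42 and Slc4a1 values of O2 stand beside 171 counts of Gata1 and 71.2 CPM of Pf4 in the same library, and what they come from was not tested.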

How the results depend on the processing

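The number of the chosen genes past the threshold was 0 in each comparison, and it became 1 with DESeq2 between Old and Adult (Slc4a1), and 1 between PDX and Adult both with only the 2 groups compared (Klf1) and without O2 and O5 (Slc4a1). Without each mouse in turn it stayed at 0. Of the log2 fold changes of the chosen genes under all alternatives, 460 kept direction and side of the threshold, 3 passed it and 20 turned direction. Leaving out 1 mouse gave, between Old and Adult, -0.15 to 1.08 for Hba-a2, -0.060 to 1.27 for Hbb-bt, -0.33 to 0.57 for Alas2, -0.81 to 4.27 for Slc4a1 and -0.089 to 0.35 for Klf1. Between PDX and Old it gave -0.99 to 0.28 for Hba-a1, -0.71 to 0.53 for Hba-a2, -0.90 to 0.20 for Hbb-bs, -1.03 to 0.30 for Hbb-bt, -0.74 to 0.17 for Alas2 and -2.65 to 2.61 for Slc4a1. All of these turned on O2. Between PDX and Adult Hba-a1 ran from -0.0066, without P4, to 0.54. Without O2 and O5 the values that turned were -0.062 for Alas2, -0.96 for Slc4a1 and -0.26 for Klf1 between Old and Adult, and 0.054 for Hba-a1, 0.25 for Hba-a2, 0.024 for Hbb-bt and 2.77 for Slc4a1 between PDX and Old. With the replicate block Slc4a1 turned to 0.21 between PDX and Old. The block called 0 of the chosen genes in each comparison and 237 genes between Old and Adult. Deviations of same-numbered mice correlated at -0.215 to 0.285 (4 of 15 pairs over 0.1). Those of differently numbered mice of different groups correlated at -0.301 to 0.337 (10 of 60 pairs over 0.1). Whether same-numbered mice shared a batch cannot be told from these values. Correlated pairs were 15, from 13 (without O2) to 20 (without O5, where 5 of the 6 pairs with Klf1 passed).

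Over all genes, calls between Old and Adult were 1072, against 2642 with DESeq2, 665 without the filter, 105 with only the 2 groups compared and 156 to 2178 without 1 mouse. Between PDX and Adult they were 420, against 1401, 332, 4531 and 166 to 1766, and 4006 without O2 and O5. Plain library totals moved the median of all genes from 0.07 to 0.16 between Old and Adult. The cause of these changes was not tested. Limits: the globin copies share most of their sequence, and Gata1 and Epb42 rest on few counts outside O2. The SE shown come from 5 mice a group, with O2 far apart in Slc4a1 and Epb42.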
